A study of Mus musculus with 10 samples.

Results

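Iron storage and transport in the mouse retina was followed here through 10 genes, picked by name from the 54532 genes of the RNA-seq table: Fth1, Ftl1, Trf, Tfrc, Slc11a2, Slc40a1, Cp, Hamp, Ireb2 and Blvrb. All 10 names were found once each, and all 10 passed the filter on low values. The retinas came from albino BALB/c mice at 2 months of age, which carried no transgene or deletion named in the labels. After 12 h of dark adaptation, 5 retinas were taken from mice under normal light of 200 lux (NL-1, NL-4, NL-5, NL-7 and NL-8) and 5 from mice under light of 15000 lux for 1 day (light damage, LD-1, LD-4, LD-6, LD-7 and LD-8). The comparison of LD with NL asks which transcripts of the retina changed after a day of strong light. Levels are in FPKM, fragments per kilobase of transcript scaled to library size, so that levels of different genes are per length and can be set beside each other.

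Cells take up iron bound to transferrin (Trf) through the transferrin receptor (Tfrc), and the divalent metal transporter DMT1 (Slc11a2) moves it out of the endosome. Iron not in use is held in ferritin, a shell of heavy (Fth1) and light (Ftl1) chains, and leaves the cell through ferroportin (Slc40a1), helped by the ferroxidase ceruloplasmin (Cp), while the hormone hepcidin (Hamp) removes ferroportin from the membrane. When iron is scarce, the iron regulatory proteins IRP1 (Aco1) and IRP2 (Ireb2) bind a short hairpin in mRNA, the iron-responsive element: in a 5′ UTR the hairpin then blocks translation, and in a 3′ UTR it protects the transcript from decay. In the retina, iron serves the phototransduction and fatty acid enzymes of photoreceptors, and free ferrous iron is known for driving oxidative damage there.

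The hairpin was looked for by its letters in the annotated UTRs of all protein-coding transcripts (GENCODE M21, GRCm38): a bulged C, 5 bases, the loop CAGTGN and 5 bases that can pair with the first 5, on the transcript strand. It was found in 4 of the 10 genes, and these sites are shown because they are the stretch by which ferritin, ferroportin and receptor transcripts are read by the same proteins. Capitals mark the loop, and T stands for U.
Fth1 5′ UTR, chr19:9982732-9982760, plus strand: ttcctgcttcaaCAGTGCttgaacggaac
Ftl1 5′ UTR, chr7:45459779-45459807, minus strand: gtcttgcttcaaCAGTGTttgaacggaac
Slc40a1 5′ UTR, chr1:45925465-45925493, minus strand: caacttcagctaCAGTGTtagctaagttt
Tfrc 3′ UTR, chr16:32631219-32631247, plus strand: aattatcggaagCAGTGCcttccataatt
Tfrc 3′ UTR, chr16:32631598-32631626, plus strand: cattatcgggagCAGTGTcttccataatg
Tfrc 3′ UTR, chr16:32631663-32631691, plus strand: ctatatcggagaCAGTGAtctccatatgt
Tfrc 3′ UTR, chr16:32631710-32631738, plus strand: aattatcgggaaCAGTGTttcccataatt
The sites of Fth1 and Ftl1 were identical at 26 of 29 bases, and the 6 pairs of Tfrc sites at 18 to 25 of 29. Over all genes, the letters were found in the 5′ UTR of 31 of 20899 genes (0.148%) and in the 3′ UTR of 129 of 21685 genes (0.595%). For the other 6 genes it can only be said that these letters were not in their annotated UTRs.

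Reads recovered from the FPKM values numbered 18965090 to 26832535 per retina. Within the groups, NL-5 with NL-7, LD-1 with LD-7 and LD-4 with LD-6 stood much closer to each other (chi-square per gene of 2.52 to 3.41) than the other 17 pairs (10.9 to 38.5). They differed by more than sampling noise, which does not show whether they came from separate animals. They were kept as separate retinas, and values with these pairs averaged are given for the 10 genes where they move a value past a limit. The tissue was retina by its markers: the rod phototransduction genes Gnat1, Pde6b and Sag were all called lower in LD, with Gnat1 at 2431 to 3119 FPKM in NL and 274 to 653 in LD, Pde6b at 346 to 389 FPKM in NL and 59.5 to 122 in LD, and Sag at 759 to 974 FPKM in NL and 225 to 468 in LD. The reactive glia markers Gfap and Vim rose together, from 26.9–58.9 to 157–248 in sum. Of 6 microglia and macrophage genes, 5 were called higher, and the 6 went from 6.61–9.33 to 15.0–28.1 in sum. Csf1r was not called, at a log2 fold change of 0.74 (limma, adjusted p = 0.0412). Of 5 Müller glia genes, Glul alone was called, with a log2 fold change of -2.09. The others went both ways, with Rlbp1 at -0.52, Apoe at -0.01, Aqp4 at 0.08 and Slc1a3 at 0.50 (limma, adjusted p = 0.0109 for Slc1a3). In FPKM values of whole retinas, fewer cells of a type and less RNA per cell cannot be told apart. By histology, the paper saw no obvious degeneration in BALB/c retinas after this same light exposure. It reports significant degeneration after a longer exposure. The part of rod loss in the lower rod gene levels was not tested here.

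After 1 day of strong light, Cp, Trf and Ftl1 transcripts rose, Tfrc transcripts fell by less than 2-fold, and the other 6 genes did not pass the test. Cp rose most, 6.08-fold by the mean FPKM, followed by Trf at 4.08-fold and Ftl1 at 2.11-fold. In limma on log2(FPKM + 0.1), with p-values adjusted by Benjamini-Hochberg for all 24508 genes that were tested, 3 of the 10 genes passed the study's call (adjusted p under 0.01 and over 2-fold), all of them higher in LD. Over all genes tested, 4.13% were called higher and 2.37% lower. At adjusted p under 0.01 with any fold, 3 of the 10 were higher and Tfrc lower, where 9.3% of all genes were higher and 7.74% lower. In 5 of the 10 the 2 groups did not overlap in any retina, which held for 22.4% of all genes. The median log2 fold change was 0.25 over the 10 genes and -0.01 over all genes tested.

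**Figure D1:**
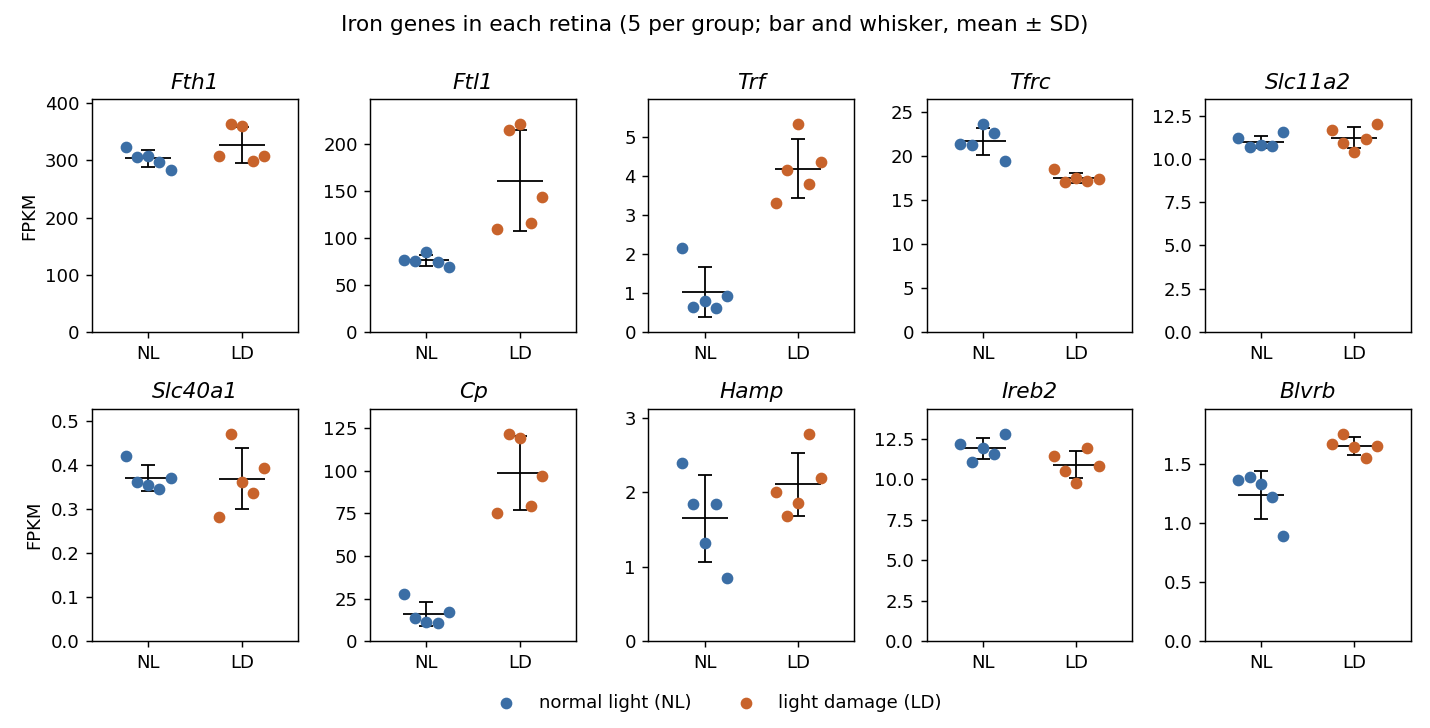
FPKM of the 10 genes in each retina, 1 panel per gene on its own linear axis from 0, with NL retinas in blue and LD retinas in orange. Each point is 1 retina, in the order of the retina numbers, and the bar and whisker give mean ± SD of 5. The LD points of Ftl1, Trf, Cp and Blvrb all sat above the NL points, and those of Tfrc all sat below.

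Fth1 encodes the heavy ferritin chain, which oxidises the iron it stores, and lies at chr19:9982703-9985092. It was the most abundant of the 10 transcripts in both groups. In NL its level was 324, 306, 308, 297 and 284 FPKM (NL-1, 4, 5, 7 and 8), and in LD it was 308, 363, 360, 298 and 308 FPKM (LD-1, 4, 6, 7 and 8). LD-4 and LD-6 were above every NL retina, while the other 3 LD retinas lay within the NL range. The means were 304 ± 14.7 and 327 ± 31.4 FPKM (SD, n = 5 each), and the log2 fold change of 0.10 (SE 0.08) did not pass the test (limma, adjusted p = 0.381). With quantile normalization it was 0.33 with an adjusted p of 0.00847.

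Ftl1 encodes the light chain, which lacks the oxidase site and helps iron enter the core of the shell, and lies at chr7:45457944-45459884. Its level in NL was 76.7, 75.5, 85.5, 74.6 and 69.7 FPKM. In LD it was 110, 216, 221, 116 and 144 FPKM, so each LD retina was above each NL retina. The LD retinas were spread over a range of their own, LD-4 and LD-6 highest and LD-1 and LD-7 lowest, which are the pairs that stood close over all genes. Mean levels were 76.4 ± 5.77 and 161 ± 53.6 FPKM (SD, n = 5 each), and on the log2 scale Ftl1 rose by 1.02 (SE 0.19, limma, adjusted p = 0.00289). The call sat at the edge of the 2-fold limit: leaving out NL-8, LD-4 or LD-6 gave 0.99, 0.90 and 0.89, and averaging the close pairs raised the adjusted p to 0.0121.

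Ferritin copies that could be found by name were counted with few reads. By gene name, the table held 2 Fth1 pseudogenes, with 0.201% to 0.804% of the reads of Fth1, and 3 Ftl1 copies, with 2.12% to 4.61% of the reads of Ftl1. Copies under other names were not looked for. Ftl1-ps1, the most abundant of the light chain copies, was at 1.66 to 2.87 FPKM in NL and at 4.49 to 6.33 FPKM in LD, and Fth-ps2 was at 1.72 to 3.76 FPKM in NL and at 1.19 to 1.57 FPKM in LD. Reads of near-identical copies may have been divided between them or dropped by the counting, so the values of the copies are uncertain. How far this touched Fth1 and Ftl1 themselves was not tested. Of the Fthl17 genes, which code for ferritin-like proteins, Fthl17f was the most abundant with at most 1.14 FPKM.

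The balance of the chains moved toward the light chain. Fth1 FPKM divided by Ftl1 FPKM was 4.22, 4.05, 3.60, 3.98 and 4.07 in NL and 2.79, 1.68, 1.63, 2.57 and 2.14 in LD. Each LD retina was below each NL retina. The mean ratio was 3.99 ± 0.231 in NL and 2.16 ± 0.519 in LD (SD, n = 5 each), a difference of -0.91 on the log2 scale with p = 0.00794 in a two-sided exact permutation test, or 0.0159 after Benjamini-Hochberg adjustment over the 2 ratios examined. An unadjusted p of 0.00794 is the smallest that this design can give. With the close pairs averaged the difference was -0.93, with an unadjusted exact permutation p of 0.0286, the smallest possible for that number of values. With the counted reads of the copies found by name added to each chain, the difference over all retinas was -0.92. Both transcripts carry the near-identical hairpin shown above, and FPKM values tell of transcript levels and not of ferritin protein.

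**Figure D2:**
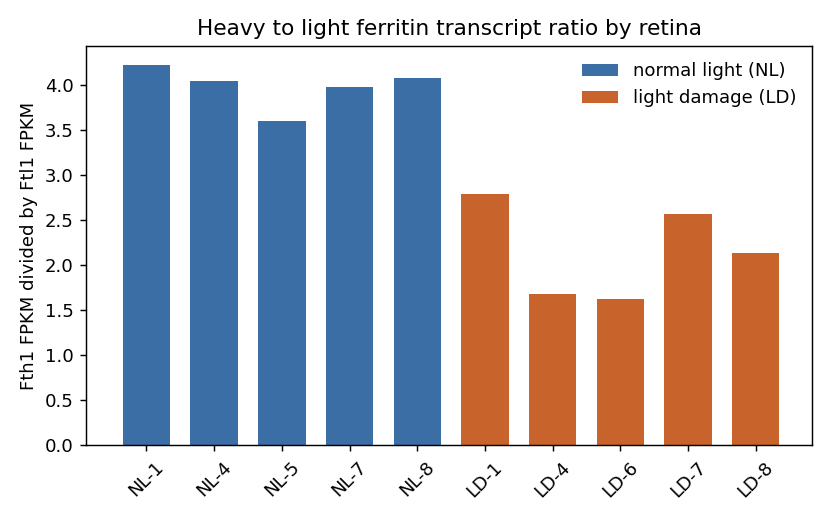
Ratio of Fth1 FPKM to Ftl1 FPKM in each of the 10 retinas, as bars from 0, NL in blue and LD in orange. The NL retinas stood at 3.60 to 4.22 and the LD retinas at 1.63 to 2.79.

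Among the uptake genes, the iron carrier rose, its receptor fell slightly and the endosomal transporter did not pass the test. Trf, at chr9:103204001-103230444, encodes transferrin, which carries ferric iron in plasma and tissue fluid. Its level was 2.14, 0.652, 0.786, 0.610 and 0.934 FPKM in NL, with NL-1 more than 2 times any other NL retina. In LD it was 3.31, 4.16, 5.32, 3.80 and 4.34 FPKM, all above NL-1. The means were 1.02 ± 0.637 and 4.19 ± 0.746 FPKM (SD, n = 5 each), and on the log2 scale Trf rose by 2.06 (SE 0.29, limma, adjusted p = 0.00041). Without NL-1 the log2 fold change was 2.34, and with the close pairs averaged it was 1.98 with an adjusted p of 0.0103, just outside the limit. Trf was counted on 43 to 152 reads in NL and 268 to 395 in LD. An overlapping gene on its strand, given below, may have affected these counts.

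Transferrin is also made by pigment epithelium and by oligodendrocytes, which a dissected retina can carry along. The 6 pigment epithelium genes summed to 49.7–141 FPKM in NL and 56.4–110 in LD, and 0 of 6 passed at adjusted p under 0.01 in limma or limma-voom, with 1 of 6 at unadjusted p under 0.05 in each. The 5 oligodendrocyte genes summed to 5.74–6.25 FPKM in NL and 6.07–7.25 in LD, and 0 of 4 tested passed in either, with 0 of 4 in limma and 1 of 4 in limma-voom at unadjusted p under 0.05. None of these genes was at 0 in both groups. The part of these cells in the Trf level was not tested.

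Tfrc, at chr16:32608920-32632794, encodes the receptor that takes transferrin into the cell, and its transcript carries the 4 hairpins shown above. Its level in NL was 21.4, 21.3, 23.6, 22.6 and 19.5 FPKM. In LD it was 18.5, 17.1, 17.4, 17.1 and 17.3 FPKM, a narrow band below each NL retina. The means were 21.6 ± 1.54 and 17.5 ± 0.582 FPKM (SD, n = 5 each), and Tfrc fell by 0.30 on the log2 scale (SE 0.05, limma, adjusted p = 0.00156). Its size depended on the scaling: without the factor that the authors applied to each retina it was -0.17 with an adjusted p of 0.0257. That factor moved the median of all genes from 0.11 to -0.01, and relative to the median Tfrc was at -0.28 without it and -0.29 with it. With the close pairs averaged it was -0.28 with an adjusted p of 0.0206, above the 0.01 limit, and its adjusted p was under 0.01 in 16 of the 22 alternatives.

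Slc11a2, at chr15:100387898-100425072, encodes the proton-coupled carrier that passes ferrous iron into the cytosol. It was at 10.7 to 11.5 FPKM in NL and 10.4 to 12.0 FPKM in LD. The groups overlapped, and the log2 fold change was 0.03 (SE 0.05, limma, adjusted p = 0.703).

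On the export side, the ferroxidase rose and the exporter itself, at a low level, did not pass the test. Cp, at chr3:19957054-20009145, encodes ceruloplasmin, a copper enzyme that oxidises iron as ferroportin releases it and that Müller glia and astrocytes make in a membrane-bound form. Its level in NL was 27.8, 13.9, 11.4, 10.5 and 17.4 FPKM, highest in NL-1. In LD it was 75.4, 122, 119, 79.5 and 96.9 FPKM. The lowest LD retina was still more than 2 times the highest NL retina. Means were 16.2 ± 7.02 and 98.6 ± 21.6 FPKM (SD, n = 5 each), and the log2 fold change of 2.66 (SE 0.25, limma, adjusted p = 3.18e-05) kept the call in all 22 alternatives tried, between 2.49 and 2.88. Cp went from near Tfrc and Ireb2 in the order of levels in NL to near Ftl1 in LD.

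Cp and the summed reactive glia markers rose together, and their order over the retinas was alike except for LD-7 and LD-8. Divided by the summed FPKM of Gfap and Vim, Cp was 0.382 to 0.472 in NL and 0.440 to 0.539 in LD, while Cp and the sum each rose several fold. In NL, both were highest in NL-1, then NL-8, NL-4, NL-5 and NL-7, and in LD both were highest in LD-4 and LD-6 and lowest in LD-1. In LD-7 and LD-8, Cp was at 79.5 and 96.9 FPKM and the sum at 181 and 180 FPKM. Gfap alone was lowest in LD-8, at 62.6 FPKM, where Vim was at 117 FPKM. Trf divided by the same sum was 0.0206 to 0.0363 in NL and 0.0167 to 0.0242 in LD, with overlap. Ftl1 divided by it was lower in each LD retina, at 1.30 to 2.85 in NL and 0.643 to 0.897 in LD, and divided by the microglia and macrophage sum it was 8.22 to 12.9 in NL and 3.93 to 11.3 in LD, with overlap. These ratios were taken with the values in view and are given as descriptions, with no test. The part of glial or microglial changes in the Cp, Trf and Ftl1 levels was not tested.

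**Figure D3:**
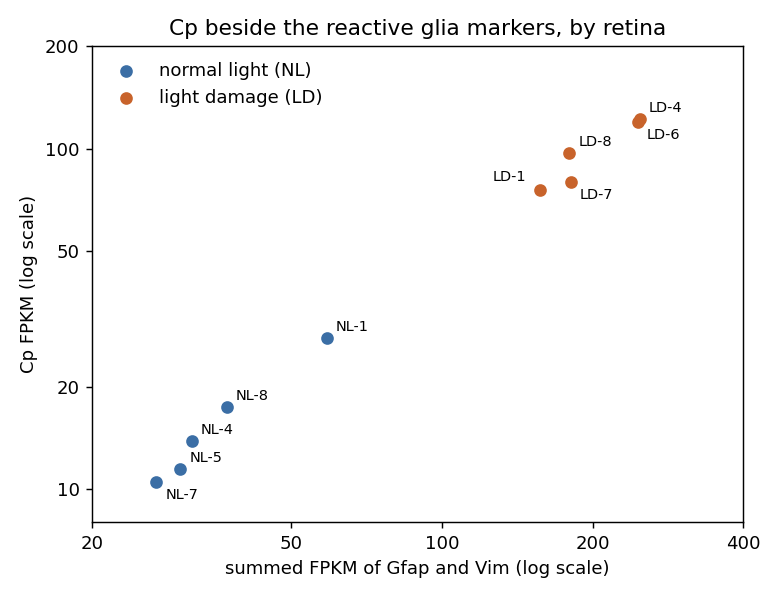
Cp FPKM against the summed FPKM of the reactive glia markers Gfap and Vim, both on log scales, with 1 point per retina, NL in blue and LD in orange. Cp was at 10.5 to 27.8 FPKM and the sum at 26.9 to 58.9 FPKM in NL, against 75.4 to 122 and 157 to 248 FPKM in LD.

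Slc40a1, at chr1:45908068-45926523, encodes ferroportin, the only known exporter of free iron in mammals. By FPKM it was the least abundant of the 10 genes. That rank depends on its listed length of 9000 bases, against 3320 for Trf and 2782 for Blvrb. Slc40a1 was at 0.421, 0.361, 0.356, 0.345 and 0.370 FPKM in NL and 0.283, 0.471, 0.363, 0.337 and 0.394 FPKM in LD. The LD retinas lay on both sides of the NL range, and the log2 fold change was -0.01 (SE 0.16, limma, adjusted p = 0.962), on 62 to 86 reads per retina. Its sign changed with the scaling, to 0.09 without the authors' factor. Slc40a1 relative to Tfrc, export against uptake, differed by 0.28 on the log2 scale (two-sided exact permutation p = 0.119, also after adjustment over the 2 ratios). Without LD-1 that difference was 0.40, with an exact permutation p of 0.0238.

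Hamp, at chr7:30942368-30944032, encodes the peptide hepcidin and was counted on only 9 to 26 reads per retina. It was at 2.40, 1.84, 1.32, 1.84 and 0.851 FPKM in NL and at 2.00, 1.68, 1.85, 2.78 and 2.19 FPKM in LD, with overlap. The log2 fold change of 0.39 (SE 0.24, limma, adjusted p = 0.281) did not pass the test. Hamp2, the second hepcidin gene of the mouse, was at 0.0845 to 0.321 FPKM in NL and at 0 to 0.169 FPKM in LD (log2 fold change -0.67, limma, adjusted p = 0.159).

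Ireb2, at chr9:54863789-54912530, encodes IRP2, which reads the hairpins shown above. Its level was 12.2, 11.1, 11.9, 11.6 and 12.8 FPKM in NL and 11.4, 10.5, 9.78, 11.9 and 10.8 FPKM in LD. The groups overlapped, and the log2 fold change was -0.13 (SE 0.06, limma, adjusted p = 0.152), or near 0 without the authors' factor. Aco1, the gene of IRP1, overlapped too, with -0.07 (adjusted p = 0.359), a sign that was also turned by the scaling.

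Blvrb, at chr7:27447978-27466144, encodes biliverdin reductase B, a flavin reductase that also acts on a biliverdin isomer, a product of haem breakdown. Its level was 1.36, 1.39, 1.33, 1.22 and 0.892 FPKM in NL and 1.67, 1.76, 1.64, 1.55 and 1.65 FPKM in LD. The groups did not overlap, but the log2 fold change of 0.40 (SE 0.13) had an adjusted p of 0.0384 in limma and did not pass the 0.01 limit. It passed that limit in 2 of 22 alternatives. These were limma-voom (0.57, adjusted p = 0.00661) and limma without the authors' factor (0.53, adjusted p = 0.00962). Blvra, the main biliverdin reductase of the adult, was at 0.10 (adjusted p = 0.182). Hmox1, the inducible haem oxygenase that frees iron from haem, was at 1.45 to 1.99 FPKM in NL and 13.0 to 14.8 FPKM in LD, a log2 fold change of 2.99 (SE 0.08, limma, adjusted p = 7.91e-09).

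**Figure D4:**
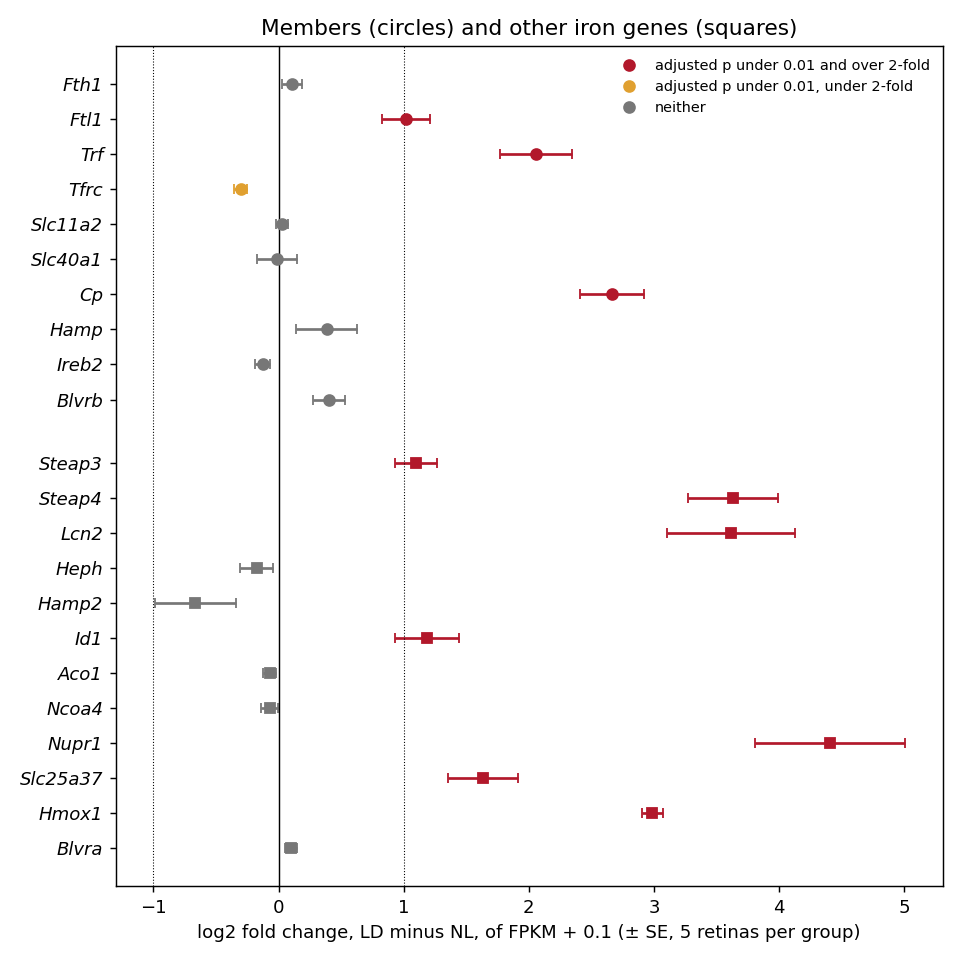
Log2 fold change, LD minus NL, of FPKM + 0.1 with its SE for the 10 genes (circles) and for other named iron genes (squares). Red marks adjusted p under 0.01 with over 2-fold, yellow adjusted p under 0.01 with less, grey neither, and dotted lines mark 2-fold. Among the 10 genes Cp (2.66), Trf (2.06) and Ftl1 (1.02) are red, Tfrc (-0.30) is yellow and the others are grey.

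Ranked by mean FPKM, the order in NL was Fth1, Ftl1, Tfrc, Cp, Ireb2, Slc11a2, Hamp, Blvrb, Trf and Slc40a1. The ranges of the neighbours from Tfrc to Slc11a2 overlapped pair by pair, as did those of Hamp with Blvrb and Blvrb with Trf. In LD the order was Fth1, Ftl1, Cp, Tfrc, Slc11a2, Ireb2, Trf, Hamp, Blvrb and Slc40a1. There, Ftl1 overlapped Cp, Slc11a2 overlapped Ireb2 and Hamp overlapped Blvrb. Cp moved above Tfrc and Trf above Hamp and Blvrb, and Slc11a2 and Ireb2, whose ranges overlapped in both groups, changed places.

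The 78 other iron and haem genes, in 6 lists by role, had a median log2 fold change of 0.04 over the 71 tested, against -0.01 over all genes. Of them, 7 were called, all higher (against 4.13% of all genes called higher). At adjusted p alone 12 were higher and 5 lower, where 9.3% of all genes were higher and 7.74% lower. Among 16 genes of iron entry and reduction (13 tested), 3 were called. They were Steap4 (3.63, SE 0.36) and Steap3 (1.10, SE 0.17), reductases that turn ferric into ferrous iron, and Lcn2 (3.61, SE 0.51), a protein of the acute phase that binds iron through siderophores. Lcn2 in NL stood at 7.24 FPKM in NL-1 and at 0.772 to 1.48 FPKM in the other 4, the same retina that was highest for Trf and Cp.

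Around ferritin itself, 1 of 9 listed genes (8 tested) was called, Nupr1 (4.40, SE 0.60), a stress-induced chromatin protein rather than an iron handler. Over all genes tested, 4.13% were called higher. Ncoa4, the receptor that takes ferritin to the lysosome, was at -0.07 (adjusted p = 0.507), with a sign that turned with the scaling. Fbxl5 (-0.48, adjusted p = 0.00545), a part of the ligase that marks IRP2 for breakdown, and Pcbp2 (-0.60, adjusted p = 0.000102), an iron chaperone for ferritin, fell by less than 2-fold in limma, and these names were picked after their values were seen. Of the 5 other genes of iron oxidation and export (4 tested), Abcg2, an exporter of porphyrins and drugs also named after its values were seen, was higher at adjusted p alone (log2 fold change 0.70, adjusted p = 0.008). Heph, a membrane ferroxidase related to Cp, was at 1.16 to 1.31 FPKM in NL and 0.856 to 1.31 FPKM in LD (log2 fold change -0.17, adjusted p = 0.379).

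In the list of hepcidin control, Id1 (1.19, SE 0.26), a target of BMP signals, was the 1 call among 13 genes tested of 14. Of the 16 genes of mitochondrial iron and iron-sulphur clusters, Slc25a37 (1.64, SE 0.28), which brings iron into mitochondria, was the 1 call. Hmox1 was the 1 call among 17 genes tested of 18 in haem synthesis and breakdown. Over all genes tested, 4.13% were called higher and 2.37% lower, so 1 call in a list of this length is near that share. The calls of the iron list genes were lost in 13 of 22 alternatives for Id1, 3 for Steap3, 2 for Nupr1 and 1 each for Lcn2 and Slc25a37. Averaging the close pairs gave adjusted p-values of 0.0121 for Lcn2, 0.0107 for Nupr1 and 0.0127 for Slc25a37 in limma. For Id1 these included leaving out any 1 of the LD retinas or NL-4, NL-5 or NL-7, with log2 fold changes of 0.98 to 1.22. The 5 erythrocyte genes summed to 17.3–35.1 FPKM in NL and 6.94–23.6 FPKM in LD, with Hba-a2 at 0 in all retinas, and 0 of 3 tested passed at adjusted p under 0.01 in limma or limma-voom, with 2 of 3 and 1 of 3 at unadjusted p under 0.05. Their part and that of the microglia and macrophage genes in these levels were not tested.

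Likeness of pattern was measured as the root mean square difference of centred log2(FPKM + 0.1) values over the 10 retinas, among 15463 protein-coding genes. The genes most like Cp were Stx11 (0.215), a syntaxin of immune cells, Htr3a (0.223), a serotonin receptor channel, and Osmr (0.230), the receptor of oncostatin M. Their log2 fold changes were 2.63, 2.64 and 2.89. Stx11 had a mean of 0.0582 FPKM in NL, below the added 0.1, and 0.830 in LD, so its likeness depends on that 0.1. Those most like Tfrc were Impa1 (0.0409), Ubxn2a (0.0445) and Slc20a1 (0.0452), with log2 fold changes of -0.30, -0.27 and -0.31. These values describe likeness only, and the retinas behind them include the close pairs.

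Several of the 10 genes share positions with others, and the sources used here do not say whether strand was used in the counting. Cp shares 13201 bases of its span with Hps3 on the other strand, which stood at 5.45 to 7.76 FPKM in NL and 4.25 to 7.09 FPKM in LD. Ftl1 overlaps Gm10252 on the other strand, at most 0.698 FPKM. Slc11a2 overlaps Gm5475 on the other strand, at most 0.336 FPKM. Trf shares 26307 bases of its span with the protein-coding Gm20425 on its own strand, Ftl1 overlaps the small Gm22133 and Hamp overlaps Gm44662. Gm20425, Gm22133 and Gm44662 are listed at 0 in all 10 retinas. Whether the counting left reads of the shared stretch out of Trf is not known, and its effect on the Trf level was not tested.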

How the data were processed

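FPKM values of 54532 genes in 10 retinas, computed by the authors, were deposited as 1 table. RNA was extracted with TRIzol, and libraries were made with a TruSeq kit. The submitters' processing notes name Bowtie2 2.0.6, TopHat2 2.0.9 and build mm8, but the positions in the file are those of GRCm38 (54495 identifiers are in GENCODE M21, 53585 with the same position, as for 9 of the 10 genes, Fth1 being the exception). The counting program is not given in the sources used here. FPKM times length gave whole reads for 100% of values (tolerance 0.01), 18965090 to 26832535 per retina, and showed that the authors had scaled library sizes by a factor of 0.951 to 0.968 in NL and 1.04 to 1.07 in LD.

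Genes that reached 0.1 FPKM in 5 or more retinas were tested with limma 3.58.1 (R 4.3.3) on log2(FPKM + 0.1), with an intensity trend and Benjamini-Hochberg adjustment; fold changes are on that scale, which understates the change of low genes. The filter and the main fit were tested on simulated data, and the alternatives were not. A limma-voom fit on the recovered reads called 1804 genes, against 1595. Ratios were compared by exact permutation. Named were all 10 genes, up to 3 called genes per direction in each iron list, Hmox1, Blvra, Aco1, Heph, Ncoa4, Steap3 and Hamp2 whatever their values, ferritin copies, the 3 genes most like the member with the largest rise and the one with the largest fall, and overlapping genes. Members and lists were chosen with earlier results of these data known. Hairpin sites were read from GENCODE M21 transcripts. The paper speaks of biological replicates; where retinas of a group shared an origin, p-values measure only the spread between them. A marker gene is not reported here.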

Additional observations from a re-analysis of the deposited data

Results flagged for a closer look

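Of 48 groups of 5 values examined, those of the 10 genes and the other named iron genes among them, 4 held a retina far from the rest by Dixon's test. Chance gives about 2.4. Trf in NL-1 was at 2.14 FPKM, against 0.610 to 0.934 in the other NL retinas. Lcn2 in NL-1 was at 7.24 FPKM, against 0.772 to 1.48, and Ncoa4 in NL-1 at 5.22 FPKM, against 4.06 to 4.39. Tfrc in LD-1 was at 18.5 FPKM, against 17.1 to 17.4 in the other LD retinas, and still below each NL retina.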

How the results depend on the processing

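Of 482 refitted fold changes of the 10 genes and the other named iron genes, 440 kept their direction and their side of the call (adjusted p under 0.01 together with over 2-fold), 28 lost the call and 14 changed sign. Values under 2-fold could still cross the adjusted p limit alone, as Tfrc did (under 0.01 in 16 of 22, highest 0.032). The genes called numbered 1595, and 1285 to 1505 with 1 retina left out, 816 with a pseudocount of 1, 949 with the close pairs averaged, 4178 at adjusted p under 0.01 with any fold and 6818 at 0.05. The members called numbered 3, 2 to 3 with 1 retina left out, 1 (Cp) with the close pairs averaged and 5 at adjusted p under 0.05 with any fold (Tfrc and Blvrb added). Retinas sharing a replicate number did not deviate together (correlations of -0.09 to 0.07 over the 4 numbers), so the numbers were not taken as pairs. Fitted without a block, the 8 retinas that share a number gave 1076 called genes and 2 called members (Cp and Trf). With a replicate block over these 8 retinas, 772 genes were called, 1 member (Cp) was, and the log2 ratio of Fth1 to Ftl1 was -0.86 (exact permutation p = 0.125, the smallest possible). With 1 retina left out that ratio was -1.02 to -0.82. The log2 ratio of Slc40a1 to Tfrc was 0.29 with a pseudocount of 1 (exact permutation p = 0.0159) and 0.18 to 0.40 with 1 retina left out. A pseudocount of 1 is above every Slc40a1 level. With it Slc40a1 itself was at -0.0025 and Tfrc at -0.29, so the value is nearly all that of Tfrc. Sign changes were all in genes that did not pass. Slc40a1 was at 0.0778 by TPM, 0.0909 without the authors' factor, 0.0989 by limma-voom and -0.0882 to 0.0564 with 1 retina left out (above 0 without NL-1, LD-1 or LD-7). Ireb2 was at 0.00432 without the factor and 0.00402 by limma-voom. Aco1 was at 0.0341, 0.0632 and 0.0639 and Ncoa4 at 0.0315, 0.0597 and 0.0627 by TPM, without the factor and by limma-voom. These 3 scalings moved the median of all genes up by 0.11, 0.12 and 0.13 on the log2 scale, and the share of calls that were higher from 63.5% to 72.7%, 72.2% and 73.0%. Hamp rested on 9 to 26 reads per retina, and how far depth limited its test was not examined.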
